A study of Mus musculus with 6 samples.

Results

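The genes described here encode proteins of the mitochondrial ribosome. They were taken from a table of 11489 genes by symbol, as every gene whose name starts with Mrpl or Mrps followed by a digit, which gave 77 genes, 48 with an Mrpl symbol for the large subunit and 29 with an Mrps symbol for the small subunit. No threshold on a value admitted or removed a gene. The table gives FPKM, fragments scaled to gene length and library size, and holds no read counts, which leaves sequencing depth unknown. The family itself was selected on measured values, the FPKM differences of this same contrast, so its differences and calls are given as a description of these libraries and support nothing. RNA was sequenced from sorted mouse cells in 2 populations, F4/80+Epor-eGFP+ (3 libraries) and F4/80+Epor-eGFP- (3 libraries). F4/80, the product of Adgre1, marks mouse macrophages, and eGFP reports the erythropoietin receptor gene Epor. For both populations the labels give the tissue as bone marrow derived macrophage cells and the cell type as erythroblastic island macrophages, around which red cell precursors mature. They state no age, sex, strain or construct of the reporter. Nor do they tell whether each library is a different animal or culture, and the p-values below therefore reflect variation among 6 libraries that could be purely technical.

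The mitochondrial ribosome translates the few proteins that mitochondrial DNA still encodes, all of them core subunits of the respiratory chain and the ATP synthase. Its RNAs come from mitochondrial DNA, while every one of its proteins is encoded in the nucleus, made in the cytosol and imported. Compared with the bacterial ribosome it carries less RNA and more protein, and many of its proteins have no bacterial counterpart. Despite their symbols, Mrps30 and Mrps18a encode proteins of the large subunit. Mrps36 encodes a subunit of the 2-oxoglutarate dehydrogenase complex and no longer counts as a ribosomal protein.

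Most of the family was higher in Epor-eGFP+ cells, by small amounts. At an adjusted p under 0.05 in a limma fit over all 10964 genes tested, 48 of 77 members were higher, 2 were lower and 27 had no call. Over all genes tested, 22.7% were called higher, 26.3% lower and 49.0% in either direction. The median log2 difference of the members, Epor-eGFP+ minus Epor-eGFP- on the log2(FPKM + 1) scale, was 0.32, against −0.012 over all genes tested, and the quartiles of the members were 0.17 and 0.50. Only 1 member, Mrps28, differed by a log2 of 1 or more, and 22 differed by at least 0.5 in either direction. Every member had a mean of at least 4.99 FPKM, so all 77 passed the filter of a mean of 1 FPKM and no member was listed at 0. After scaling all libraries to the same total, 56 members were higher and 1 was lower. In that fit 27.9% of all genes tested were higher and 19.0% lower. Counting called genes only, 59.5% of them were higher, against 46.3% without rescaling.

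The medians of the 2 subunit symbols were nearly equal, 0.315 for Mrpl and 0.317 for Mrps. Of the 48 Mrpl genes, 28 rose, 2 fell and 18 had no call, with a median log2 difference of 0.32. Of the 29 Mrps genes, 20 rose and 9 had no call, with a median of 0.32. No Mrps gene was called lower by limma, and none was lower at an unadjusted p under 0.05. Sorted by where the protein sits and by descent, 18 of 30 large subunit proteins with a bacterial counterpart rose (median 0.35), as did 11 of 20 large subunit proteins particular to mitochondria (0.25), 12 of 17 small subunit proteins with a bacterial counterpart (0.32) and 6 of 9 small subunit proteins particular to mitochondria (0.38). Mrps36 belongs to none of these groups. Of the relatives of bacterial S18, Mrps18b and Mrps18c were counted with a bacterial counterpart and Mrps18a as particular to mitochondria. Counting Mrps18b as particular to mitochondria, like Mrps18a, would change the counts and medians of both small subunit groups. No difference between the groups of members was tested.

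**Figure D1:**
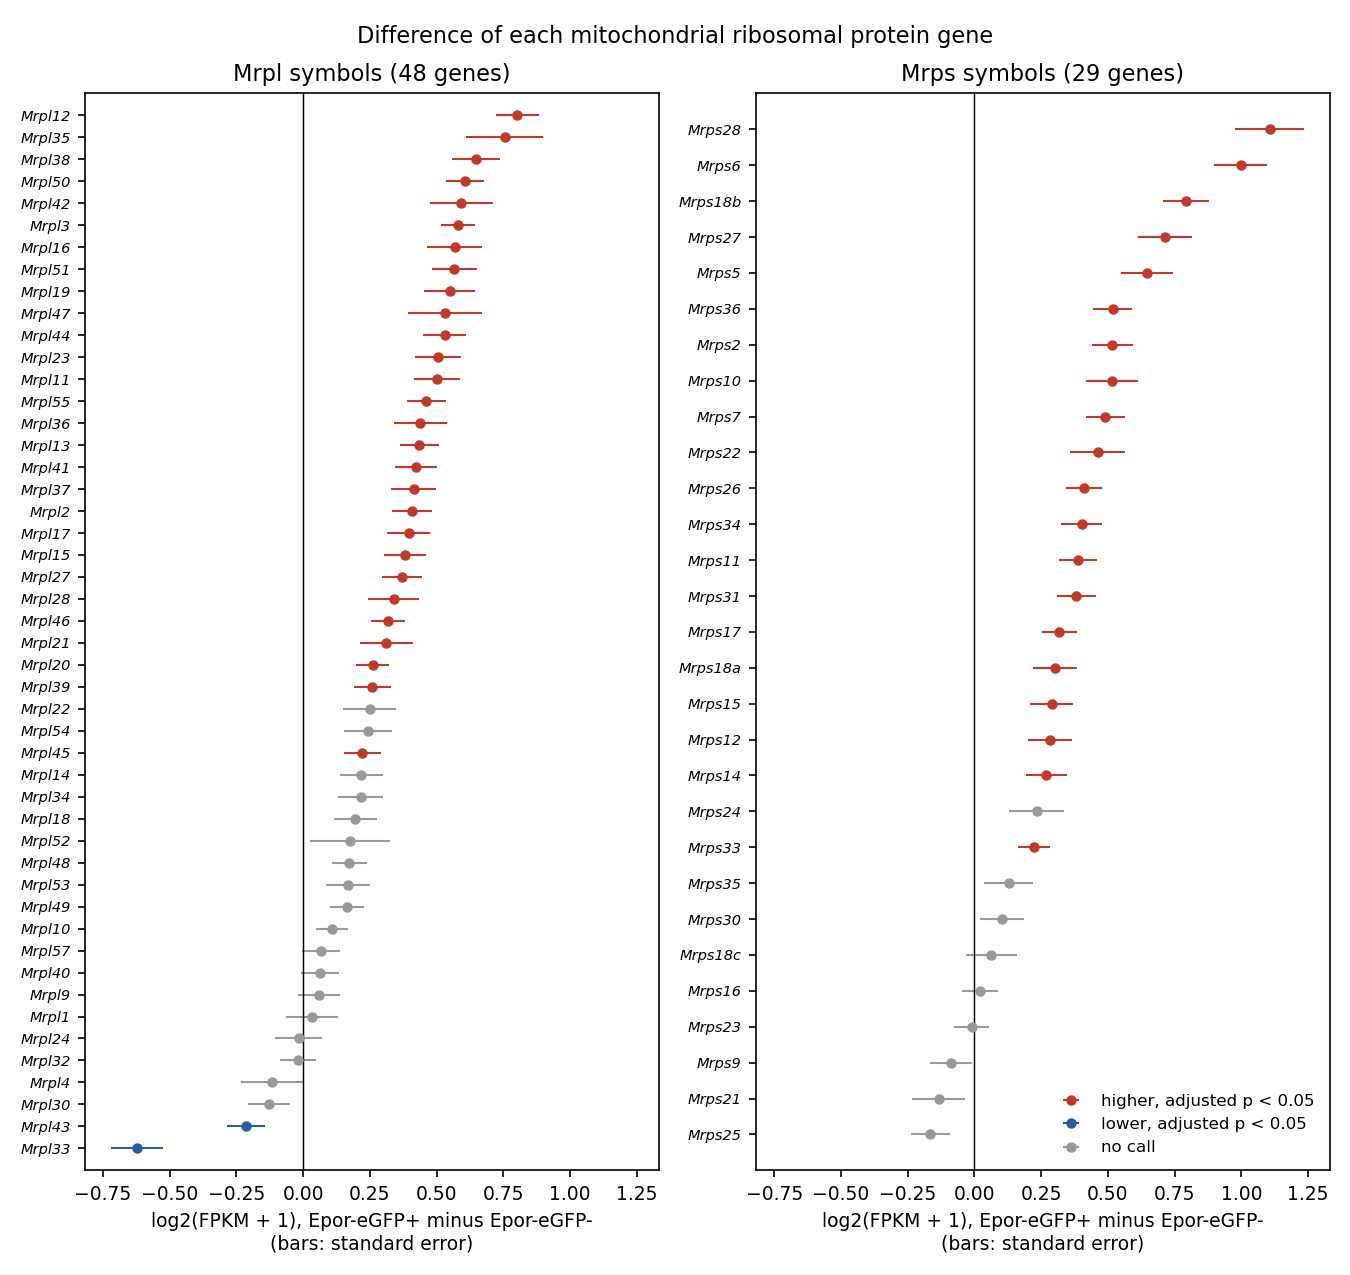
Difference of each of the 77 genes between Epor-eGFP+ and Epor-eGFP- cells on the log2(FPKM + 1) scale, with its standard error, for Mrpl symbols (left) and Mrps symbols (right). Mrps28 (1.11) and Mrpl12 (0.80) lead the 2 panels, and Mrpl33 (−0.62) and Mrpl43 (−0.21) are the 2 members called lower.

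Stretches of promoter are printed for 6 members, to show the letters searched for in the promoters. They were picked after their values were seen: Mrps6, Mrpl12, Mrpl35 and Mrpl50 are the 4 members with the largest positive differences that have such a stretch, and Mrpl43 and Mrpl33 are the 2 members called lower. Each stretch reads 5′ to 3′ on the strand of the gene (GRCm38.p6), lies wholly upstream of the RefSeq gene, holds no base of a GENCODE M21 exon and is 60 to 150 bases long. Mrps28, Mrps18b, Mrps27, Mrpl38 and Mrps5 had larger differences than Mrpl50 but no stretch that met these conditions. Capitals mark the letters CCGGAA or TTCCGG, the core that factors of the ETS family such as GABPA bind. In order, the stretches are chr16:92058120-92058269 (plus strand), chr11:120484463-120484612 (plus strand), chr6:71823811-71823960 (minus strand), chr4:49521094-49521175 (minus strand), chr19:45006443-45006557 (minus strand) and chr5:31613789-31613938 (plus strand).
Mrps6: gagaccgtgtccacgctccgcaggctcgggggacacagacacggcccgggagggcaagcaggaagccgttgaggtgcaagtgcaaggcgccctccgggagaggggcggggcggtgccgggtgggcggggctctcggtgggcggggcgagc
Mrpl12: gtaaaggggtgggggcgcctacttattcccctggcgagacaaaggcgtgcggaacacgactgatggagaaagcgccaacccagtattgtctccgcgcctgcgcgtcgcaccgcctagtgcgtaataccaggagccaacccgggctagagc
Mrpl35: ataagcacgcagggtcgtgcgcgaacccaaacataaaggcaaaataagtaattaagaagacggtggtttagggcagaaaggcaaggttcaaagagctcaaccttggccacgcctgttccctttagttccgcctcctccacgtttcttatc
Mrpl50: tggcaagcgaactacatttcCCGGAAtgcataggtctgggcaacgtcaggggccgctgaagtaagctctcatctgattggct
Mrpl43: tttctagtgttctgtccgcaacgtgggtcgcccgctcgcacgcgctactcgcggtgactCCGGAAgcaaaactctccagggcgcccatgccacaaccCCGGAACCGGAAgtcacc
Mrpl33: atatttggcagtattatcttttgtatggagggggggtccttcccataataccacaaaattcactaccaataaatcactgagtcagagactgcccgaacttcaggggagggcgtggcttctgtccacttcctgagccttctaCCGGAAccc
The stretch of Mrpl43 holds the ETS core 3 times, those of Mrpl50 and Mrpl33 hold it 1 time each, and those of Mrps6, Mrpl12 and Mrpl35 do not hold it. Of all 35 members with such a stretch, 10 hold it there, 4 of 23 that rose, 4 of 10 with no call and both that fell.

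Among RefSeq promoters of 300 bases (250 before and 50 after the start), 68 of 77 members had at least 1 entry. The ETS core CCGGAA, on either strand, was in the promoters of 39 of these 68 genes (57.4%), against 33.3% of the 8478 tested genes with an entry and 14.9% of all 32851 promoters in the table. It was present for 20 of the 42 members with an entry that rose, for 17 of 24 with no call and for both that fell. The core of YY1, ATGGCG, was in 26.5% of member genes and 18.6% of tested genes. It was held by 12 of the 42 that rose, by 6 of 24 with no call and by neither that fell. In most of these members it lay after the start, within the 50 bases searched there. The palindrome of nuclear respiratory factor 1, GCGCATGCGC, was in 4.41% and 2.50%, and the E-box CACGTG, which MYC and its relatives bind, in 7.35% and 12.1%. The GC box GGGCGG was in 50% of member genes and 69.1% of tested genes. Over all promoters in the table the shares were 8.93% for ATGGCG, 0.971% for the palindrome, 7.15% for the E-box and 35.7% for the GC box. These letters were searched on both strands, a match is no shown binding site, and genes with several starts had more sequence searched.

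Of the small subunit genes, Mrps28, Mrps6, Mrps18b, Mrps27 and Mrps5 had the largest differences. Mrps28, whose protein corresponds to bacterial S1 (chromosome 3, 8802146 to 8923857), had 30.2, 30.0 and 28.8 FPKM in Epor-eGFP+ libraries 0, 1 and 2, against 11.0, 16.1 and 13.2 FPKM in Epor-eGFP- libraries 0, 1 and 2. The Epor-eGFP+ libraries lay close together and all above the Epor-eGFP- libraries, which spread more, and the log2 difference was 1.11 (SE 0.13, limma adjusted p = 0.00103). Mrps6, the counterpart of bacterial S6 (chromosome 16, 92058336 to 92112227), had 12.4, 11.1 and 11.97 FPKM in Epor-eGFP+ libraries, against 6.13, 5.44 and 4.75 FPKM in Epor-eGFP- libraries. Its groups did not overlap either (log2 difference 0.998, SE 0.10, adjusted p = 0.000694), and its annotated exons share 159 bases on the same strand with Slc5a3, the transporter gene inside its locus, so that reads of both can mix. Mrps27, a small subunit protein with pentatricopeptide repeats, which bind RNA, had 14.8, 15.4 and 13.8 FPKM in Epor-eGFP+ libraries, against 8.36, 9.77 and 7.59 FPKM in Epor-eGFP- libraries (log2 difference 0.71, SE 0.10). Mrps5, the counterpart of bacterial S5, averaged 22.8 ± 2.18 FPKM in Epor-eGFP+ cells and 14.2 ± 1.22 FPKM in Epor-eGFP- cells (SD, n = 3 each; log2 difference 0.65, SE 0.098).

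The 3 relatives of bacterial S18 had unequal differences, which were not tested against each other. Mrps18b had 26.6, 25.1 and 22.7 FPKM in Epor-eGFP+ libraries 0, 1 and 2, against 14.5, 12.9 and 14.2 FPKM in Epor-eGFP- libraries, a log2 difference of 0.79 (SE 0.086, adjusted p = 0.000846). Mrps18a, the relative that sits in the large subunit, had 28.6, 29.3 and 29.1 FPKM in Epor-eGFP+ libraries, against 21.2, 23.4 and 25.6 FPKM in Epor-eGFP- libraries, a log2 difference of 0.30 (SE 0.082, adjusted p = 0.0215). Mrps18a lost its call without any of Epor-eGFP+ libraries 0 and 1 and Epor-eGFP- libraries 0 and 1 (adjusted p 0.0502 to 0.0730). Mrps18c had 39.9, 40.1 and 38.8 FPKM in Epor-eGFP+ libraries, against 33.7, 37.5 and 43.0 FPKM in Epor-eGFP- libraries. Its groups overlapped and it had no call (0.063, SE 0.096), and without Epor-eGFP- library 0 its log2 difference was −0.019. The order of the 3 levels, in FPKM, which is per length, was Mrps18c, Mrps18a, Mrps18b in both groups, and the gap between Mrps18a and Mrps18b was 28.98 ± 0.375 against 24.8 ± 1.97 FPKM in Epor-eGFP+ cells and 23.4 ± 2.195 against 13.9 ± 0.862 FPKM in Epor-eGFP- cells (SD, n = 3 each).

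Of the other genes with an Mrps symbol, Mrps12 encodes the S12 counterpart of the decoding centre. Mrps12 averaged 37.8 ± 1.82 FPKM in Epor-eGFP+ cells and 31.0 ± 2.48 FPKM in Epor-eGFP- cells (SD, n = 3 each) and rose (log2 difference 0.28, SE 0.082, adjusted p = 0.0264). It lost its call without any of Epor-eGFP+ libraries 0 and 1 and Epor-eGFP- libraries 0 and 1 (adjusted p 0.0560 to 0.102). Mrps36, the dehydrogenase subunit, averaged 25.7 ± 0.863 and 17.6 ± 1.05 FPKM in the same order and rose too (0.52, SE 0.072). GENCODE names 3 pseudogenes after it, which could take or lend reads. Mrps30, whose protein sits in the large subunit, averaged 22.5 ± 1.99 FPKM in Epor-eGFP+ cells and 20.8 ± 0.758 FPKM in Epor-eGFP- cells, overlapped between groups and had no call (0.10, SE 0.083). Mrps31, at 9.54 ± 0.401 against 7.10 ± 0.296 FPKM, was among the least abundant Mrps genes and rose (0.38, SE 0.073). Mrps15, the counterpart of bacterial S15, was at 49.7 ± 2.98 against 40.5 ± 2.70 FPKM and rose (0.29, SE 0.080), a call lost without any of Epor-eGFP+ library 1 and Epor-eGFP- libraries 0 and 1 (adjusted p 0.0518 to 0.0861).

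Of the large subunit genes, Mrpl12 had the largest difference. Its protein forms the stalk that recruits translation factors (chromosome 11, 120484637 to 120488754 in RefSeq). It had 79.8, 77.3 and 75.5 FPKM in Epor-eGFP+ libraries 0, 1 and 2, against 40.5, 48.4 and 43.4 FPKM in Epor-eGFP- libraries. The groups were far apart relative to their spread (log2 difference 0.80, SE 0.082, adjusted p = 0.000725), and Mrpl12 was the second most abundant member in Epor-eGFP+ cells and ranked 7 in Epor-eGFP- cells. The gene of its partner at the stalk base, Mrpl10, was at 28.7 FPKM in Epor-eGFP+ cells and 26.5 FPKM in Epor-eGFP- cells and had no call (0.11, SE 0.059). Of the 5 genes of the stalk and its base, 2 rose, Mrpl12 and Mrpl11 (0.50, SE 0.087), beside 22.7% of all genes tested. Mrpl10, Mrpl53 and Mrpl54 had no call. All Epor-eGFP+ libraries lay above all Epor-eGFP- libraries for these 3 as well, and Mrpl54 (0.24, SE 0.088, adjusted p = 0.0568) was called higher with the column number as a block (adjusted p = 0.0479).

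Mrpl35, Mrpl38, Mrpl50 and Mrpl42 followed. Mrpl35, the counterpart of bacterial L35, had 6.96, 6.34 and 9.67 FPKM in Epor-eGFP+ libraries 0, 1 and 2, against 3.84, 4.22 and 4.13 FPKM in Epor-eGFP- libraries. Epor-eGFP+ library 2 was the highest, and without it the log2 difference of 0.76 (SE 0.15) was 0.59. Mrpl38, a protein of the central protuberance, had 19.9, 17.95 and 17.7 FPKM in Epor-eGFP+ libraries, against 10.4, 11.6 and 12.5 FPKM in Epor-eGFP- libraries (0.65, SE 0.090). Mrpl50, particular to mitochondria, had 13.7, 13.5 and 13.9 FPKM in Epor-eGFP+ libraries, against 8.22, 9.17 and 8.62 FPKM in Epor-eGFP- libraries (0.61, SE 0.071). The libraries of each group were nearly level for Mrpl50 and did not overlap for either gene. Mrpl42 averaged 57.6 ± 5.34 FPKM in Epor-eGFP+ cells and 38.0 ± 5.01 FPKM in Epor-eGFP- cells (SD, n = 3 each; 0.59, SE 0.12).

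Around the opening of the tunnel through which new proteins leave, 6 of 8 genes rose (median 0.33), beside 22.7% of all genes tested. Mrpl45, which faces the inner membrane there, averaged 15.6 ± 0.808 FPKM in Epor-eGFP+ cells and 13.2 ± 0.333 FPKM in Epor-eGFP- cells (SD, n = 3 each; log2 difference 0.22, SE 0.070, adjusted p = 0.0355). Mrpl45 lost its call without any single library except Epor-eGFP+ library 2 (adjusted p 0.0669 to 0.120). Mrpl44, which carries a ribonuclease III fold, was higher by 0.53 (SE 0.082), and Mrpl23, the counterpart of bacterial L23, by 0.50 (SE 0.086). Mrpl17 rose by 0.40 (SE 0.081), with 5.80 ± 0.317 against 4.17 ± 0.205 FPKM, and had the lowest mean level of the family over the 6 libraries. Mrpl24 (−0.017, SE 0.087) and Mrpl22 (0.25, SE 0.099) had no call.

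Mrpl33 went the other way and was also the most abundant member in both groups. The gene, which encodes the counterpart of bacterial L33 (chromosome 5, 31613951 to 31622644), had 96.5, 90.9 and 85.5 FPKM in Epor-eGFP+ libraries 0, 1 and 2, against 129, 135 and 158 FPKM in Epor-eGFP- libraries. All Epor-eGFP+ libraries lay below all Epor-eGFP- libraries (log2 difference −0.62, SE 0.097, adjusted p = 0.00264), and the sign held in all 16 alternative settings (−0.68 to −0.49). Its exons share 107 bases on the same strand with the annotated gene Gm43809, so reads of both can mix in its value and in the sums below. Mrpl43, a large subunit protein particular to mitochondria (chromosome 19), had 34.8, 34.1 and 36.1 FPKM in Epor-eGFP+ libraries, against 39.6, 39.0 and 43.7 FPKM in Epor-eGFP- libraries. It fell by 0.21 on the log2 scale (SE 0.071, adjusted p = 0.0428) and lost its call after scaling to the same total (−0.12, adjusted p = 0.240), and its exons share 358 bases on the opposite strand with Twnk, the mitochondrial helicase gene. It also lost its call without any single library (adjusted p 0.0527 to 0.130), and its adjusted p ran from 0.0210 to 0.240 over the alternatives.

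Of the 27 members with no call, 19 were above and 8 below a difference of 0, and in 10 of them all Epor-eGFP+ libraries lay above all Epor-eGFP- libraries. Among all 5592 tested genes with no call, 2876 were above and 2716 below 0, and 652 lay wholly above and 637 wholly below. Mrps25, also with no call, had all Epor-eGFP+ libraries below all Epor-eGFP- libraries. It had 11.7, 12.5 and 12.4 FPKM in Epor-eGFP+ libraries, against 13.7, 13.2 and 14.7 FPKM in Epor-eGFP- libraries (−0.16, SE 0.073, adjusted p = 0.101). Its exons share 3533 bases on the opposite strand with Nr2c2, so reads of both may be mixed. Over the whole family the groups did not overlap in 61 genes, 58 with Epor-eGFP+ above and 3 with it below. Over all genes tested 28.4% lay wholly above and 31.9% wholly below. Mrps21 averaged 63.0 ± 3.61 FPKM in Epor-eGFP+ cells and 69.5 ± 8.21 FPKM in Epor-eGFP- cells, and Mrpl30 averaged 55.5 ± 0.917 and 60.8 ± 5.01 FPKM in the same order (SD, n = 3 each), and neither had a call. Mrps16 at 48.3 ± 2.14 against 47.6 ± 1.63 FPKM, Mrps9 at 21.5 ± 1.03 against 22.99 ± 1.65 FPKM and Mrpl1 at 5.41 ± 0.231 against 5.29 ± 0.647 FPKM overlapped between groups. Mrpl18 (67.1 ± 3.76 against 58.6 ± 4.02 FPKM; 0.19, SE 0.081, adjusted p = 0.0844) missed the threshold. It was called higher with a common total, a common upper quartile or quantile normalization (adjusted p 0.0439 to 0.0485). Mrpl52 had 66.5, 64.4 and 69.2 FPKM in Epor-eGFP+ libraries 0, 1 and 2, against 51.8, 52.2 and 75.8 FPKM in Epor-eGFP- libraries, and without Epor-eGFP- library 2 it was called higher (0.35, adjusted p = 0.0132).

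**Figure D2:**
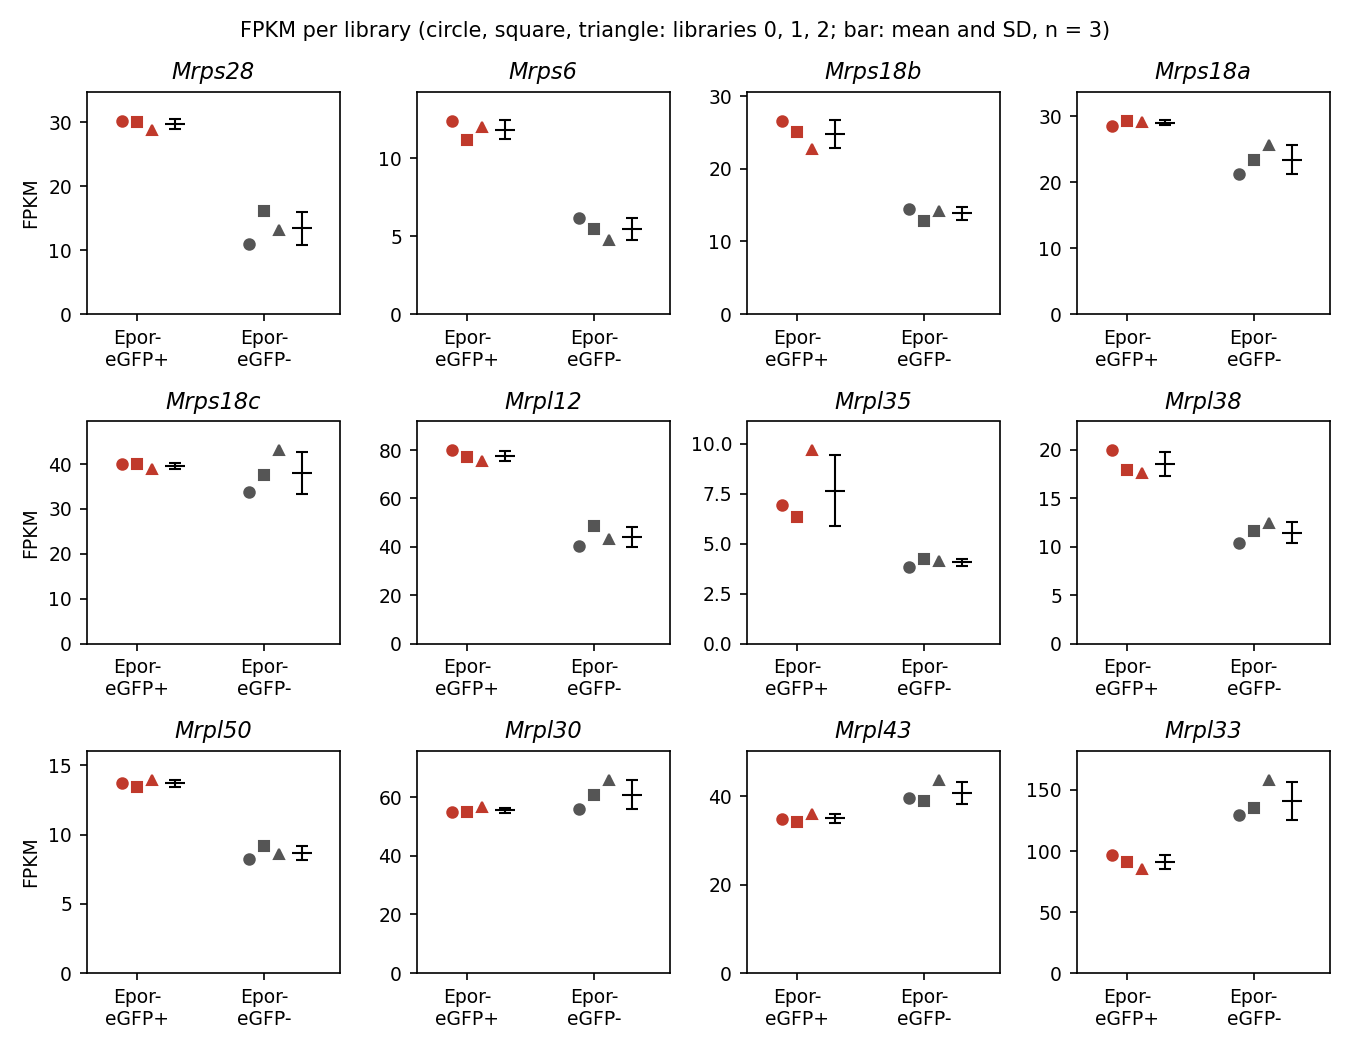
FPKM of 12 members in each library, Epor-eGFP+ left and Epor-eGFP- right, with the mean and SD of 3 libraries. Mrps28, Mrps6, Mrps18b and Mrpl12 sit higher in every Epor-eGFP+ library, Mrps18c and Mrpl30 overlap, and Mrpl33 sits between 85.5 and 96.5 FPKM in Epor-eGFP+ cells, below every Epor-eGFP- library.

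Levels per length spanned 23.3-fold within the family, from 4.99 FPKM for Mrpl17 to 116 FPKM for Mrpl33 as means over 6 libraries, with a median of 22.9986 FPKM. After Mrpl33 came Mrps21 (66.2 FPKM), Mrpl52 (63.3), Mrpl18 (62.9), Mrpl12 (60.8), Mrpl30 (58.1) and Mrpl23 (51.5), and in Epor-eGFP+ cells Mrpl12 was above the rest of this set while in Epor-eGFP- cells Mrps21 was. The order of the levels was close between the groups, with a Spearman correlation of 0.958 between group means across the 77 genes, which share libraries and are not independent. Between libraries of a group the same correlation was 0.988 to 0.996, and between libraries of different groups 0.947 to 0.974. Median differences were larger among the less abundant members: of the 25 least abundant genes (up to 16.6 FPKM) 20 rose (median 0.42), of the 27 in the middle 16 rose (0.31), and of the 25 most abundant (from 32.1 FPKM) 12 rose and 2 fell (0.22). The Spearman correlation of mean level with log2 difference was −0.36 across the 77 genes.

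Summed over the family, FPKM was 2300, 2260 and 2234 in Epor-eGFP+ libraries 0, 1 and 2, against 1799, 1924 and 2034 in Epor-eGFP- libraries 0, 1 and 2. All Epor-eGFP+ sums lay above all Epor-eGFP- sums, with a ratio of means of 1.18, and the Epor-eGFP+ sums were closer together. The Mrpl sum was 1476 ± 14.2 FPKM in Epor-eGFP+ cells and 1270 ± 86.5 FPKM in Epor-eGFP- cells, and the Mrps sum was 789 ± 19.8 and 649 ± 31.5 FPKM in the same order (SD, n = 3 each). The ratio of the Mrpl sum to the Mrps sum was 1.85, 1.86 and 1.91 in Epor-eGFP+ libraries, against 1.93, 1.93 and 2.01 in Epor-eGFP- libraries. Without Mrpl33 the same ratio was 1.73, 1.74 and 1.80 in Epor-eGFP+ libraries, against 1.72, 1.73 and 1.77 in Epor-eGFP- libraries, and the groups overlapped.

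**Figure D3:**
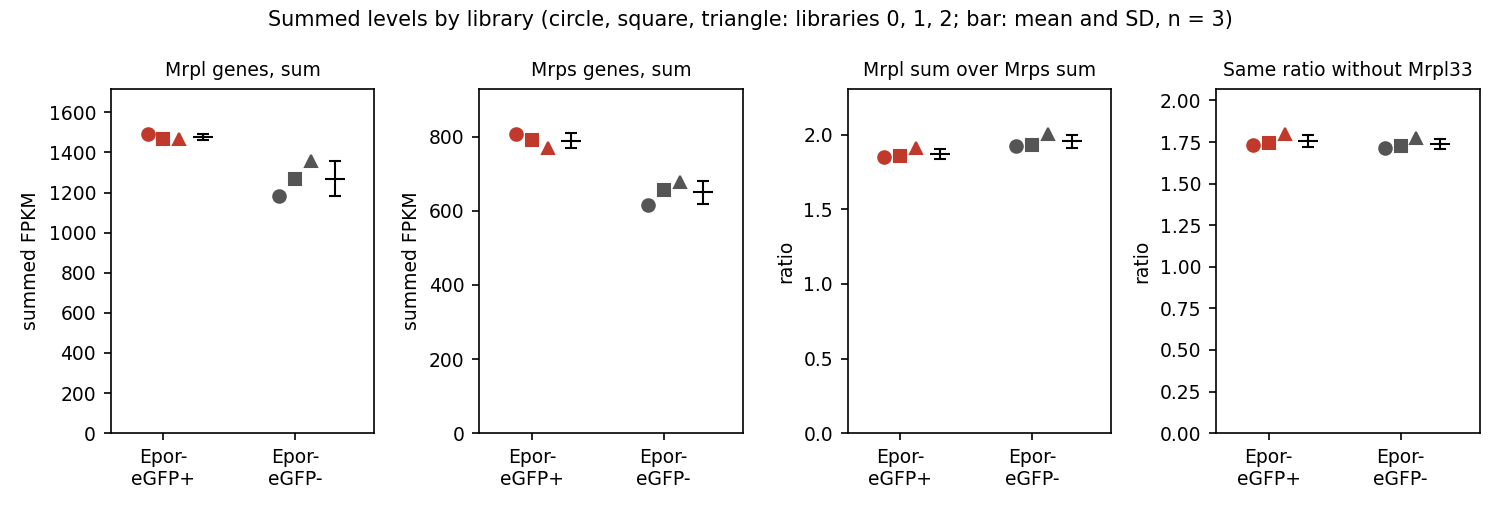
Summed FPKM of the Mrpl and the Mrps genes and the ratio of these sums per library, Epor-eGFP+ left and Epor-eGFP- right, with the mean and SD of 3 libraries. Both sums are higher in Epor-eGFP+ cells, and the ratio separates the groups with Mrpl33 (1.85 to 1.91 against 1.93 to 2.01) and overlaps without it.

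Within groups, each library was set against its group mean on the log2(FPKM + 1) scale. The median deviation of the members was −0.070, 0.016 and 0.050 in Epor-eGFP- libraries 0, 1 and 2. Over all genes tested it was −0.00072, −0.0069 and 6.5e-05 there. In Epor-eGFP+ libraries 0, 1 and 2 it was 0.014, 0.0047 and −0.028 for the members, against −0.0017, 0.017 and −0.026 over all genes tested. The median coefficient of variation of a member was 4.80% in Epor-eGFP+ cells and 6.79% in Epor-eGFP- cells, against 8.46% and 7.97% over the 7798 tested genes in the same range of mean FPKM. Of the Epor-eGFP- libraries, library 0 was the lowest for 49 of 77 members and library 2 the highest for 44. Of the Epor-eGFP+ libraries, library 2 was the lowest for 41 members. Without Epor-eGFP- library 0, 37 members were called higher and the median difference was 0.26. The share of all genes called higher was 15.9% in that fit, against 22.7% with all libraries.

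These are bulk samples, so more cells of a type and more RNA per cell cannot be told apart. Epor was higher in Epor-eGFP+ cells (5.96 ± 2.26 against 0.335 ± 0.105 FPKM, SD, n = 3 each), and Adgre1 was at 167 ± 65.5 against 136 ± 3.85 FPKM. Markers of several cell types moved with the group, while the sums of erythroid genes and of genes of cycling cells overlapped between groups. The 12 resident macrophage genes counted here include Adgre1, which had no call. The 5 azurophil granule genes of promyelocytes in the table (Mpo, Elane, Prtn3, Ctsg and Ms4a3) all rose and summed to 7868 to 9784 FPKM in Epor-eGFP+ libraries, against 1513 to 2818 FPKM in Epor-eGFP- libraries. Of 21 erythroid genes 14 rose, or 20 with the column number as a block (654 to 2104 against 96.8 to 824 FPKM), of 12 resident macrophage genes 11 rose (1970 to 7267 against 240.2 to 286 FPKM), of 6 specific granule genes 5 fell (4931 to 5851 against 10821 to 17085 FPKM), and all 8 monocyte genes fell (1216 to 1523 against 2961 to 4178 FPKM). Of 15 genes of cycling cells 2 rose, Ccnb1 and Cdk1 (sums of 1112 to 1499 against 945 to 1304 FPKM), and 10 rose with the block. Over all genes tested 22.7% rose, or 28.0% with the block. No gene of these lists in the table was at 0 in any library, and the part of these cells in the result was not tested. In Epor-eGFP+ libraries 0, 1 and 2, resident macrophage sums were 3303, 1970 and 7267 FPKM and azurophil granule sums were 8280, 9784 and 7868 FPKM. Sums over the Mrpl and Mrps genes were 2300, 2260 and 2234 FPKM in the same order, and no relation among these sums was tested.

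The rest of the translation machinery of mitochondria was counted from lists, beside 22.7% higher and 26.3% lower over all genes tested. Of 6 ribosomal proteins with other symbols, 4 rose: Ptcd3, a pentatricopeptide protein of the small subunit (0.65, SE 0.15), Gadd45gip1 (0.60, SE 0.082), Chchd1 (0.43, SE 0.11) and Dap3 (0.24, SE 0.077), while Ict1 (−0.14) and Aurkaip1 (−0.052) had no call. Of 14 translation factors 8 rose (median 0.33), among them Tsfm, the exchange factor of the elongation factor Tufm (18.1 ± 0.996 against 10.9 ± 1.16 FPKM; 0.69, SE 0.094), Mrrf, which recycles ribosomes (0.63, SE 0.076), and Lrpprc, which stabilises mitochondrial mRNAs (0.62, SE 0.077). Of 17 mitochondrial aminoacyl tRNA synthetases 10 rose (median 0.43), among them Tars2 (0.74, SE 0.081) and Yars2 (0.73, SE 0.15), which charge tRNAs with threonine and tyrosine.

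Of 25 factors that assemble the mitochondrial ribosome, 7 rose (28%, near the 22.7% of all genes tested), 1 fell and 17 had no call, with a median of 0.14. C1qbp, a matrix protein that binds RNA, had the largest difference of this list, at 103 ± 6.43 FPKM in Epor-eGFP+ cells and 42.5 ± 7.05 FPKM in Epor-eGFP- cells (SD, n = 3 each; log2 difference 1.26, SE 0.12, adjusted p = 0.000630). Wbscr16 (0.88, SE 0.080) and Fastkd2 (0.85, SE 0.097), an RNA binding protein of large subunit assembly, rose too. Rbfa, which helps to mature the small subunit, fell by 0.47 (SE 0.088), with 58.8 ± 2.55 against 82.2 ± 7.79 FPKM.

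Of 14 transcription factors, coactivators and components of mitochondrial transcription in the table, 5 rose, 3 fell and 6 had no call. That is 35.7% higher and 21.4% lower (median −0.035), beside 22.7% and 26.3% over all genes tested. The difference between these shares was not tested, and the counts are not read as a result about the list. Myc rose by 0.99 (SE 0.22), at 41.6 ± 6.71 against 20.9 ± 6.01 FPKM, Pprc1, a coactivator of the PGC-1 family, by 0.70 (SE 0.098), and Ppargc1b by 0.47 (SE 0.11). Polrmt, the mitochondrial RNA polymerase, was higher by 0.41 (SE 0.092) and Tefm, its elongation factor, by 0.38 (SE 0.095). Nrf1, which encodes nuclear respiratory factor 1, was at 15.2 ± 1.14 against 18.8 ± 0.943 FPKM and fell by 0.29 (SE 0.081), as did Esrra by 0.37 (SE 0.11) and Max, the partner of MYC, by 0.36 (SE 0.085). Gabpa (−0.17, SE 0.087) and Tfam (0.043, SE 0.069) had no call.

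The 80 tested subunits of the respiratory chain and ATP synthase, into which the products of this ribosome are built, had 33 genes higher, 4 lower and 43 without a call (median 0.19). Atp5g1, a ring subunit of the ATP synthase, was at 124 ± 1.42 against 66.2 ± 6.02 FPKM (0.90, SE 0.082). Of 78 proteins of the cytosolic ribosome 12 rose, 1 fell and 65 had no call (median 0.087), and their differences ran from −1.85 to 1.17. Among those that rose, Rpl26 (1.17, SE 0.19) and Rpl30 (0.77, SE 0.12) led, with means over 6 libraries of 33.8 and 32.9 FPKM beside a list median of 917 FPKM. The share called higher was thus 62.3% for the Mrpl and Mrps genes, 41.3% for the respiratory chain and 15.4% for the cytosolic ribosome, against 22.7% over all genes. The differences between these shares were not tested, and genes of these lists share libraries.

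**Figure D4:**
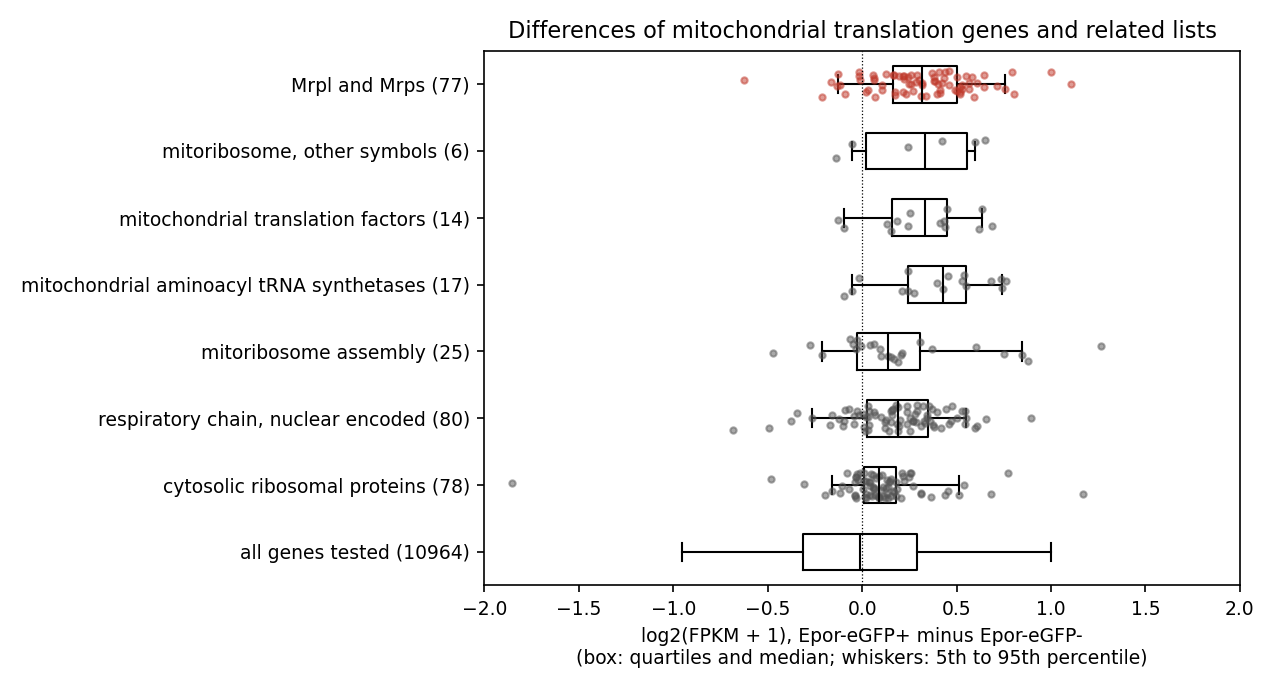
Log2 differences, Epor-eGFP+ minus Epor-eGFP-, for the Mrpl and Mrps genes, related lists and all genes tested, with the number of genes beside each name. The medians are 0.32 for the Mrpl and Mrps genes, 0.43 for the mitochondrial synthetases, 0.19 for the respiratory chain and 0.087 for the cytosolic ribosome.

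Many members start next to another gene on the opposite strand. In GENCODE M21, 33 of 77 members (42.9%) had a protein-coding gene whose annotated start lies within 1000 bases on the opposite strand, against 17.5% of the 10333 tested genes found there. A single pair joins members with each other: Mrps11 and Mrpl46 start 412 bases apart and rose by 0.39 (SE 0.072) and 0.32 (SE 0.063). The remaining 31 members had 26 neighbours that were tested, of which 5 rose, 4 fell and 17 had no call (median log2 difference 0.057). Of 16 members that rose and had such a tested neighbour, 4 had a neighbour that rose as well. Over all genes tested 22.7% rose, and neither count of neighbours that rose is read as a result about the pairs.

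Both genes rose in 4 of these pairs, Mrps12 and Sars2, the mitochondrial seryl tRNA synthetase gene 172 bases away (0.28 and 0.39), Mrpl36 and Ndufs6, a complex I subunit gene (0.44 and 0.20), Mrpl27 and Eme1 (0.37 and 0.45), and Mrps34 and Eme2 (0.40 and 0.44). Mrps18b, 45 bases from Ppp1r10, rose by 0.79 while Ppp1r10 had no call (−0.15), and Mrps27, 81 bases from Ptcd2, rose by 0.71 while Ptcd2 had no call (−0.021). Mrps7 rose by 0.49 and Gga3, 126 bases away, fell by 0.37, and Mrpl41 rose by 0.42 and Pnpla7 fell by 0.51. Mrpl18 had no call beside the chaperonin gene Tcp1, which rose by 0.58. In all, 30 members share exon bases with another annotated gene, most on the opposite strand, and the use of strand in counting is not given in the sources used here, so reads of such pairs may be mixed.

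**Figure D5:**
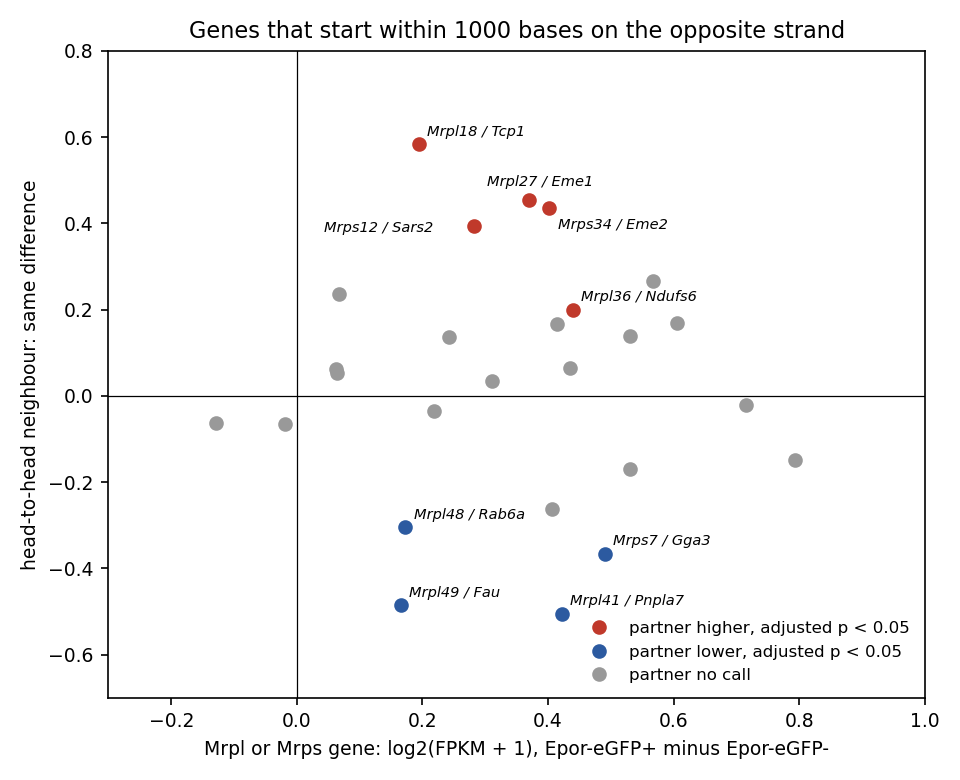
Log2 difference of 26 Mrpl and Mrps genes (horizontal) and of the gene that starts within 1000 bases on the opposite strand (vertical), Epor-eGFP+ minus Epor-eGFP-. The members lie mostly right of 0, while 5 neighbours rose, 4 fell and 17 had no call.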

How the data were processed

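TruSeq RNA kit v2 libraries were sequenced from RNA of sorted cells, per the labels' protocols. The authors deposited a single table of FPKM, that is fragments scaled to gene length and to library size. The tools listed in the submitters' processing notes are TopHat2 2.1.0, Cufflinks 2.2.1, Trimmomatic 0.35 and bcl2fastq 2.19.1.403, with mm10 as build. Their roles, the annotation, the use of strand and any filter were not given in the sources used here. In the deposited table each gene has 1.00 FPKM or more in at least 1 library. FPKM hold no read counts, so depth is unknown. The columns are numbered 0, 1 and 2 within a group and the sample titles 1, 2 and 3, so columns were assigned to groups only.

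Genes averaging 1 FPKM or more were fitted with limma 3.58.1 (R 4.3.3) on log2(FPKM + 1), group as the only term, eBayes with trend, two-sided, Benjamini-Hochberg over 10964 genes, threshold 0.05. Log2 differences on this scale understate the change of low genes. Libraries with the same number deviated together (correlations 0.25, 0.38 and 0.35 over tested genes), so the column number as a block is an alternative. Members and lists were chosen with earlier results of these data known. Members named are, per subunit symbol, the 5 largest positive and 3 largest negative differences, the 3 highest and 2 lowest levels, calls against the majority and 8 fixed genes. Members named for a role, a neighbour or a list were added after their values were seen. The fit was tested on simulated data of 10964 genes, with 67, 67 and 66 genes changed by a log2 of 0.5, 1 and 2. It called 50.7%, 86.6% and 86.4% of these, and 8 of its 157 calls were false. In the real data 5372 genes were called, so these rates need not hold there. Gene positions are from RefSeq GRCm38.p6, neighbours and exons from GENCODE M21, both of the assembly that mm10 names.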

Additional observations from a re-analysis of the deposited data

How the results depend on the processing

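Over 16 alternatives the number of members called higher ran from 37 to 56, the number called lower from 1 to 2, and the median difference from 0.26 to 0.41, while the median of all genes ran from −0.033 to 0.078. The share of all genes called higher ran from 14.7% to 28.0%, and from 14.7% to 22.2% leaving out each library. Members called lower numbered 1 (Mrpl33) with a common total, a common upper quartile, quantile normalization, no mean-variance trend and without both libraries numbered 2, since Mrpl43 lost its call. With a common total the medians were 0.41 for all members, 0.41 for Mrpl and 0.41 for Mrps, and the summed FPKM ratio was 1.27. With log2(FPKM + 5) they were 0.25 for Mrpl and 0.27 for Mrps, which the larger pseudocount shrinks by construction. The Mrps median was 0.38 with a common upper quartile and 0.37 without both libraries numbered 2. The replicate block gave 49 higher and 2 lower and lost none of the 48 calls. Leaving out each library gave 37 to 51 members higher, 1 to 1 lower, medians of 0.26 to 0.36 (Mrpl 0.25 to 0.36, Mrps 0.29 to 0.36) and summed ratios of 1.14 to 1.22. Of the members named by the rule, those that changed sign had no call: Mrps9 (0.0078 with a common total, 0.0017 without both libraries numbered 2), Mrpl1 (−0.037 with quantile normalization, and −0.036 to 0.11 leaving out libraries), Mrps16 (−0.016 and −0.00049 without Epor-eGFP+ library 0 and Epor-eGFP- library 1, up to 0.047 leaving out others) and Mrps18c (−0.019 to 0.15 leaving out libraries). Mrps12, Mrps15, Mrps18a and Mrpl45 lost their calls without some single libraries (adjusted p up to 0.102, 0.0861, 0.0730 and 0.120). With a mean of at least 5 FPKM required, 76 members were tested, since Mrpl17 falls out. The other causes were not tested. FPKM without counts limit what can be said of members below 10 FPKM, of which there were 9.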
